A study of Arabidopsis thaliana with 8 samples.

Results

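Receptor-like proteins (RLPs) of Arabidopsis thaliana are encoded by a numbered gene family, RLP1 to RLP57, and their transcripts were measured in leaves that overexpress the transcription factor RAP2.9 and in wild-type leaves. The family was chosen by name: a locus was a member if its gene symbol or a synonym was RLP, with or without a leading AT, followed by a number. The family was proposed with results of this same comparison known, so the values below describe its genes and are no independent evidence that the family differs from other genes. The rule gave 56 loci, after 1 was left out because another member holds its number, 54 by their symbol and 2 by a synonym only, CLV2 (RLP10) and TMM (RLP17). No locus matched the number 8. Of the 56, 53 had a probe matched to them on the array, 3 of these were too dim to be tested (RLP5, RLP15 and RLP48), and 50 were tested among 25089 genes in all. Of these 25089, 20268 had a locus name. The rest were array features with no matched locus, counted as genes here and in all shares over all genes. RLP18, RLP47 and RLP49 had no matched probe and were not analysed here.

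The study used Agilent 1-colour arrays, 4 for each genotype, with 1 biological replicate per array. One genotype carried 35S::Rap2.9-GFP, a transgene in which the 35S promoter of a plant virus, active in most tissues, drives RAP2.9 joined to green fluorescent protein. The other was the wild type Col-0, the laboratory accession that is also the ecotype background named for the transgenic plants. Plants of both genotypes were untreated, grew under shared conditions and were 54 days old, after 20 days with 8 h of light and then 34 days with 12 h of light per day. The sources used here do not say how many transformed lines the transgenic plants came from. Each of 2 slides held 2 arrays of either genotype. RNA came from leaf, a mixture of cell types in which fewer cells of a type and less RNA per cell cannot be told apart.

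RLPs sit in the plasma membrane with leucine-rich repeats on the outside, which bind ligands, and only a short tail on the inside, without a kinase. They therefore signal through partner kinases, mainly the adaptor SOBIR1 and the co-receptor BAK1, and several recognise pieces of bacteria, fungi or oomycetes and set off pattern-triggered immunity. A few act in development instead, such as CLV2 in the shoot meristem and TMM in the spacing of stomata.

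Values are given as the log2 signal over the 75th percentile of the same array, listed for replicates 1 to 4 of each genotype. Differences are transgenic minus wild type on this log2 scale, with the standard error (SE) from limma, and p-values were adjusted over all 25089 genes with the Benjamini-Hochberg method. A gene was called at an adjusted p under 0.05. A level of one gene cannot be set against that of another, since probes differ in brightness.

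The share of probes well above background ran from 72.5% to 84.3% over the arrays and peaked on transgenic replicate 1. One probe of RAP2.9 was higher by 4.14 in the transgenic leaves and its other probe changed by -1.77, and where they lie relative to the transgene is unknown. As a check of the leaf label, the mesophyll genes RBCS1A, LHCB1.1, LHCB2.1, CAB1 and PSAD-1 had mean levels of 6.13 to 6.39 on the wild-type arrays and 6.24 to 6.68 on the transgenic arrays. Of these 5, LHCB2.1 was higher (2.05-fold, adjusted p = 0.00645 in limma) and 4 did not pass. All 5 tested xylem markers, both tested root markers and both tested flower markers were higher in the transgenic leaves. Of 4 tested phloem markers 2 were lower, and 0 of 2 trichome markers were called. For comparison, 18.6% of all genes tested were higher and 16.0% lower, and nothing is read from the counts of these short lists. The mean level of the xylem markers ran from -3.61 to -2.32 in the wild type and from -2.13 to -1.56 in the transgenic leaves. The phloem markers ran from 1.65 to 1.83 and from 1.31 to 1.53. For the root markers the ranges were -4.90 to -3.77 and -2.81 to -1.77, and for the flower markers -5.32 to -4.20 and -3.73 to -2.92. The root marker PHT1;1 was well above background on 1 wild-type and 0 transgenic arrays, and the flower marker AP3 on 0 of 8. Their part in the results below was not tested.

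In the transgenic leaves 25 of the 50 tested RLP genes were higher, 6 were lower and 19 did not pass. Among all genes tested, 18.6% were higher and 16.0% were lower. Because the family was chosen with this contrast known, nothing is read from the difference between these shares. The median log2 change of the 50 genes was 0.39, beside 0.03 for all genes, and their quartiles were 0.10 and 0.75 beside -0.20 and 0.30. The changes were mostly modest: called higher genes rose 1.18- to 2.36-fold and called lower genes fell 1.22- to 4.28-fold. The largest called difference was the fall of RLP33, and the largest called rise was that of RLP7. All 4 transgenic arrays exceeded all 4 wild-type arrays for 24 of the members and stayed below all of them for 6, where 19.7% and 17.0% of 24954 genes with a value on every array did so. All 25 called higher genes had a positive change on both slides and all 6 called lower genes a negative one. A difference of the genotype effect between slides was past an adjusted p of 0.05 for 0 members in limma, and 3 members and 641 of all genes had an unadjusted p under 0.05.

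**Figure D1:**
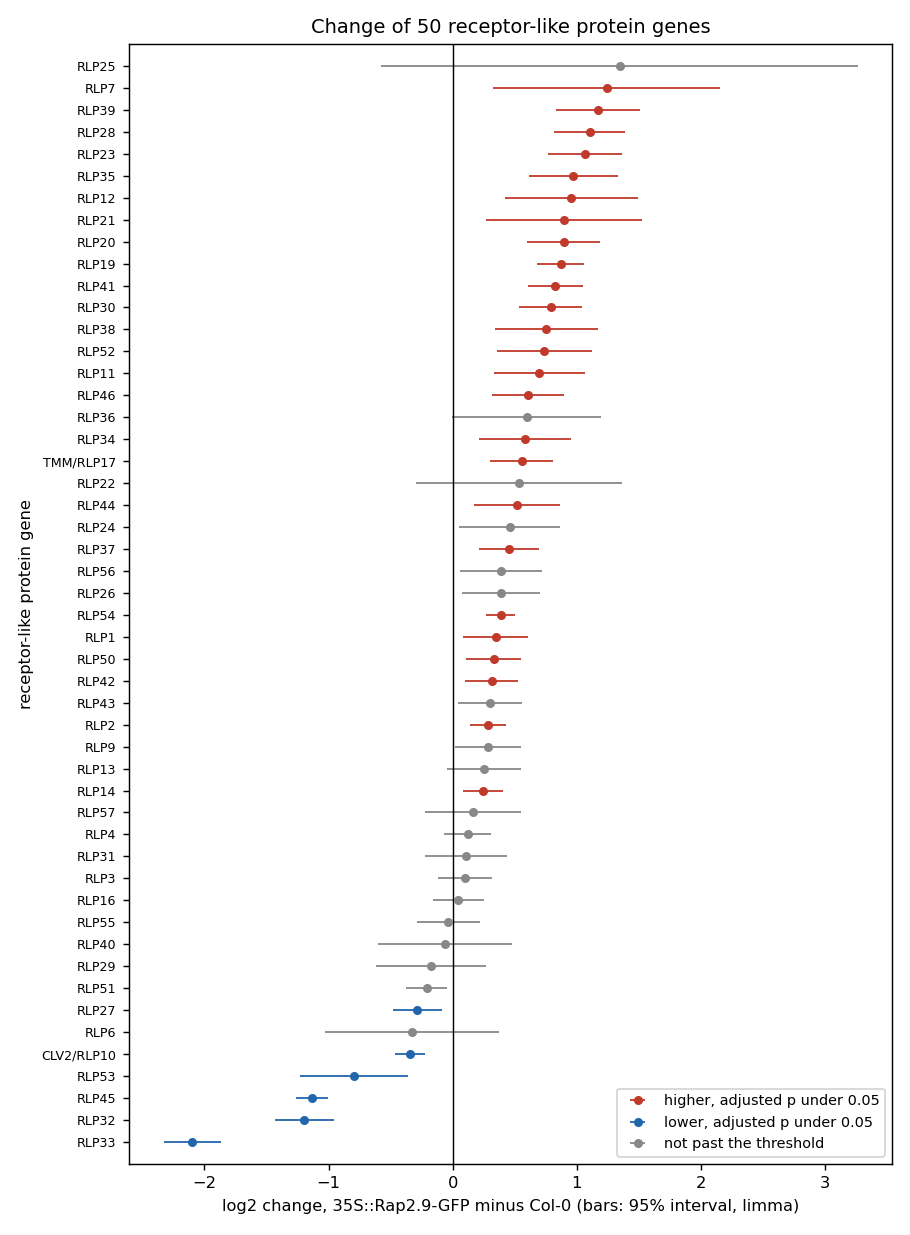
Log2 change (transgenic minus wild type, x axis) of the 50 tested RLP genes (y axis), with 95% intervals from limma over 4 arrays per genotype. Red points (25) were higher, blue points (6) lower and grey points (19) did not pass an adjusted p of 0.05, and the blue points include RLP33 at -2.10.

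Among the 5 RLPs with a known microbial ligand, 4 were higher and 1 was lower in the transgenic leaves, beside 18.6% higher and 16.0% lower among all genes. The members were grouped by role after values were seen, so nothing is read from the counts of such a group. RLP23 (AT2G32680), which recognises a peptide of necrosis-inducing proteins shared by bacteria, fungi and oomycetes, gave -2.37, -1.83, -2.28 and -1.98 on the wild-type arrays and -1.06, -1.18, -1.02 and -0.94 on the transgenic arrays. All transgenic arrays lay above all wild-type arrays, and the gene rose 2.09-fold, by 1.06 ± 0.13 (SE, n = 4 per genotype) on the log2 scale, with an adjusted p of 8.82e-04. A second RLP23 probe changed by 1.19. RLP30 (AT3G05360), which takes part in the recognition of a secreted protein of the fungus Sclerotinia sclerotiorum, read -4.37, -4.55, -4.39 and -4.17 on the wild-type arrays and -3.72, -3.35, -3.59 and -3.66 on the transgenic arrays. The groups did not overlap, and RLP30 rose by 0.79 ± 0.11 (SE), 1.73-fold, with an adjusted p of 0.00163 in limma. RLP42 (AT3G25020), the receptor for fungal endopolygalacturonases, enzymes that cut pectin, gave -1.67, -1.55, -1.68 and -1.42 on the wild-type arrays and -1.47, -1.18, -1.18 and -1.23 on the transgenic arrays. Transgenic replicate 1 fell among the wild-type arrays, and the difference was small at 0.31 ± 0.09 (SE), 1.24-fold, with an adjusted p of 0.0341. RLP1 (AT1G07390), which perceives a proteinaceous pattern of Xanthomonas bacteria, read -3.28, -3.47, -3.39 and -3.24 on the wild-type arrays and -3.00, -3.20, -3.08 and -2.71 on the transgenic arrays. Its groups were separate by a narrow gap, with a change of 0.35 ± 0.11 (SE), 1.27-fold, and an adjusted p of 0.0473.

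RLP32 (AT3G05650), the receptor for a bacterial translation initiation factor, moved the other way, with -0.08, -0.39, -0.41 and -0.34 on the wild-type arrays and -1.71, -1.48, -1.44 and -1.37 on the transgenic arrays. The highest transgenic array lay 0.97 under the lowest wild-type array, and RLP32 fell 2.29-fold, by 1.20 on the log2 scale (SE 0.10, n = 4 per genotype), with an adjusted p of 2.12e-04. With normexp, another background correction that starts from the median spot signals and adds an offset, RLP23 and RLP32 kept their calls (0.81 and -0.97), while RLP30, RLP42 and RLP1 did not, with changes of 0.26, 0.24 and 0.11 and adjusted p of 0.893, 0.319 and 0.942 in limma. Leaving out 1 array at a time, the call of RLP42 was lost in 6 of 8 fits (adjusted p 0.0645 to 0.0849), all but those without wild-type replicate 4 or transgenic replicate 1. That of RLP1 was lost in 7 of 8 (0.0685 to 0.11), all but the fit without transgenic replicate 2.

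Of the 4 RLPs known from disease resistance or immunity genetics, 3 were tested and 1 was called, as higher. The shares over all genes were 18.6% higher and 16.0% lower. RLP52 (AT5G25910), whose mutants are more susceptible to powdery mildew, gave -5.94, -5.68, -5.28 and -5.33 on the wild-type arrays and -4.64, -4.71, -4.92 and -5.01 on the transgenic arrays. The groups were separate, and RLP52 rose 1.67-fold, by 0.74 ± 0.16 (SE), with an adjusted p of 0.0118, a change that was 0.00 with normexp (adjusted p = 1.00 in limma). RLP51 (AT4G18760), also known as SNC2, whose gain-of-function form switches on defence without a pathogen, read -1.56, -1.54, -1.56 and -1.46 on the wild-type arrays and -1.65, -1.90, -1.65 and -1.76 on the transgenic arrays. Although every transgenic array lay under every wild-type array, its change of -0.21 ± 0.07 (SE) narrowly missed the threshold with an adjusted p of 0.0526, and it passed in 6 of 20 alternative settings. RLP3 (AT1G17250), a locus of resistance to Fusarium oxysporum, gave -1.91, -1.85, -1.70 and -1.91 on the wild-type arrays and -1.87, -1.55, -1.67 and -1.88 on the transgenic arrays. Its groups overlapped, with a change of 0.10 ± 0.09 (SE), an adjusted p of 0.439 and a 95% interval of -0.12 to 0.32. RLP18, named in resistance to a non-adapted Pseudomonas strain, is a transcribed pseudogene in the gene table used here.

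All 4 RLPs known from development, the cell wall or hormone responses were called, 3 higher and 1 lower. Among all genes 18.6% were higher and 16.0% lower, and nothing is read from the count of this small group. CLV2 (AT1G65380), which works with the kinase-like protein CRN in the perception of CLE peptides, gave 0.09, 0.00, 0.10 and 0.11 on the wild-type arrays and -0.27, -0.28, -0.33 and -0.19 on the transgenic arrays. The difference was small against a tight spread, a fall of 0.34 (SE 0.05), 1.27-fold, with an adjusted p of 0.00255, and no transgenic array reached the lowest wild-type array. TMM (AT1G80080), which modulates ERECTA-family receptors so that stomata do not form next to each other, read -1.95, -1.92, -2.19 and -1.86 on the wild-type arrays and -1.20, -1.38, -1.56 and -1.57 on the transgenic arrays. The groups did not overlap, and TMM rose 1.47-fold, by 0.55 ± 0.11 (SE), with an adjusted p of 0.00702. Beside it, 3 of the 4 tested markers of guard cells and their lineage were higher, as were 18.6% of all genes. These were KAT1, MYB60 and FAMA (by 0.40, 0.57 and 0.38), and SPCH changed by -0.59 with an adjusted p of 0.294. MUTE was below the filter and was well above background on 0 wild-type and 2 transgenic arrays. The mean level of the 4 tested markers was -2.49 to -2.01 in the wild type and -2.14 to -1.72 in the transgenic leaves. This mean includes SPCH, which was well above background on 4 wild-type but only 2 transgenic arrays and whose groups overlapped. For KAT1, MYB60 and FAMA every transgenic array lay above every wild-type array. The part of the number of stomatal cells in the TMM difference was not tested.

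RLP44 (AT3G49750), which links the state of cell-wall pectin to brassinosteroid signalling, gave -3.11, -2.95, -3.34 and -3.36 on the wild-type arrays and -2.48, -2.42, -2.90 and -2.88 on the transgenic arrays. The nearest arrays of the groups were 0.05 apart, and RLP44 rose by 0.52 ± 0.15 (SE), 1.43-fold, with an adjusted p of 0.0318, and its second probe by 0.68. RLP41 (AT3G25010), mutants of which respond more strongly to abscisic acid in leaf senescence, read -2.02, -1.76, -1.76 and -1.88 on the wild-type arrays and -1.09, -1.19, -1.01 and -0.84 on the transgenic arrays. All transgenic arrays lay well above the wild type, and RLP41 rose 1.77-fold, by 0.83 ± 0.09 (SE), with an adjusted p of 7.35e-04. The calls of TMM and RLP44 were lost with normexp, with changes of 0.41 and 0.25 (adjusted p = 0.206 and 0.792 in limma). That of RLP44 was also lost in 5 of 8 fits without 1 array (adjusted p 0.0539 to 0.0838), those without wild-type replicate 1, 3 or 4 or transgenic replicate 1 or 2.

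The other 38 tested members have no role stated here. Of these, 17 were higher, 4 were lower and 17 did not pass, beside 18.6% higher and 16.0% lower among all genes. RLP33 (AT3G05660) had the largest called difference in the family. Its signal was -0.45, -0.57, -0.55 and -0.47 on the wild-type arrays and -2.81, -2.74, -2.48 and -2.41 on the transgenic arrays, from -0.51 ± 0.06 (SD, n = 4) to -2.61 ± 0.19 (SD, n = 4). This was a 4.28-fold fall, a difference of -2.10 ± 0.10 (SE) with an adjusted p of 1.93e-05. Its second probe changed by -2.12, and the change was -2.07 on one slide and -2.12 on the other. RLP45 (AT3G53240) fell 2.19-fold, with -0.88, -0.92, -0.96 and -0.89 on the wild-type arrays and -1.93, -2.06, -2.12 and -2.08 on the transgenic arrays. The spread within each genotype was a small fraction of the gap between them, and the change of -1.13 ± 0.06 (SE) had an adjusted p of 2.34e-05. RLP53 (AT5G27060) gave -5.54, -5.43, -6.01 and -5.37 on the wild-type arrays and -6.40, -6.74, -6.05 and -6.33 on the transgenic arrays. It fell 1.73-fold (adjusted p = 0.0148), but only 2 of its 4 transgenic arrays were well above background. RLP27 (AT2G33060) read -1.11, -1.18, -1.13 and -1.25 on the wild-type arrays and -1.24, -1.61, -1.50 and -1.46 on the transgenic arrays. Transgenic replicate 1 lay within the wild-type range, and the change of -0.29 ± 0.09 (SE, adjusted p = 0.0362) stood beside -0.05 for its second probe (adjusted p over all probes 0.923 in limma). The call of RLP27 was lost in 7 of 8 fits without 1 array (adjusted p 0.0537 to 0.0839), all but the fit without transgenic replicate 1, and with normexp those of RLP27 and RLP53 were lost (-0.26 and -0.40).

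**Figure D2:**
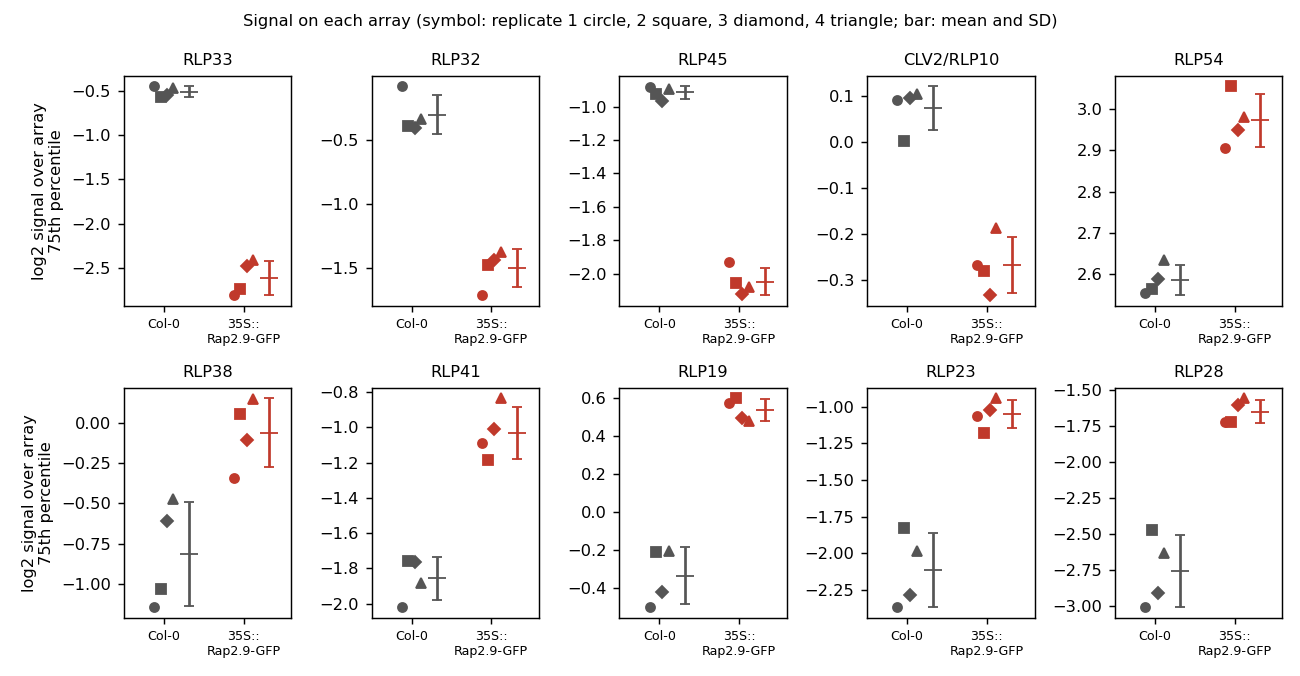
Log2 signal relative to the 75th percentile of each array (y axis, a separate scale in each panel) on each of the 8 arrays for the 10 RLP genes whose call held under all 20 alternative settings. Grey marks are wild type and red marks transgenic, with 1 symbol per replicate and the mean ± SD beside them, and in each panel the 4 red marks lie wholly above or wholly below the 4 grey marks.

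Among the higher members without a stated role, RLP28, RLP19, RLP38 and RLP54 kept their calls under all 20 alternative settings. RLP28 (AT2G33080) gave -3.01, -2.47, -2.91 and -2.63 on the wild-type arrays and -1.72, -1.72, -1.60 and -1.56 on the transgenic arrays. The lowest transgenic array lay 0.75 above the highest wild-type array, a rise of 2.15-fold (1.104 ± 0.12, SE) with an adjusted p of 6.38e-04. RLP19 (AT2G15080) read -0.50, -0.21, -0.42 and -0.20 on the wild-type arrays and 0.58, 0.60, 0.49 and 0.48 on the transgenic arrays. It moved from below to above the array's 75th percentile, 1.83-fold, by 0.87 ± 0.08 (SE), with an adjusted p of 3.11e-04. RLP38 (AT3G23120) gave -1.14, -1.03, -0.61 and -0.47 on the wild-type arrays and -0.34, 0.05, -0.11 and 0.15 on the transgenic arrays. Its arrays varied more, yet did not overlap, and it rose 1.69-fold, by 0.76 ± 0.18 (SE, adjusted p = 0.0149). RLP54 (AT5G40170) read 2.55, 2.56, 2.59 and 2.64 on the wild-type arrays and 2.905, 3.05, 2.95 and 2.98 on the transgenic arrays. Its arrays were close within each genotype, and it rose 1.31-fold, by 0.39 ± 0.05 (SE, adjusted p = 0.00135).

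RLP11, RLP12, RLP20, RLP35 and RLP46 lost their calls with normexp alone, as RLP30 and TMM did. RLP20 (AT2G25440) gave -2.65, -2.24, -2.12 and -2.44 on the wild-type arrays and -1.46, -1.55, -1.28 and -1.60 on the transgenic arrays. It rose 1.86-fold, by 0.89 ± 0.13 (SE, adjusted p = 0.00185), with no overlap, and its adjusted p with normexp was 0.0544 in limma. RLP46 (AT4G04220) read -1.39, -1.60, -1.49 and -1.20 on the wild-type arrays and -1.02, -0.81, -0.87 and -0.54 on the transgenic arrays. It rose 1.52-fold (adjusted p = 0.00858), as did its second probe by 0.60, with separate groups. RLP11 (AT1G71390) gave -2.54, -2.72, -2.42 and -2.03 on the wild-type arrays and -1.93, -1.70, -1.78 and -1.51 on the transgenic arrays. All transgenic arrays were higher than all wild-type arrays, by 0.70 ± 0.16 (SE) between the means, with an adjusted p of 0.0127. RLP12 (AT1G71400) read -4.99, -4.98, -4.39 and -5.13 on the wild-type arrays and -3.46, -3.74, -4.19 and -4.28 on the transgenic arrays. Its transgenic arrays were all higher, with replicates 3 and 4 closest to the wild type, for a rise of 1.94-fold (adjusted p = 0.0164). RLP35 (AT3G11080) gave -5.84, -5.79, -5.59 and -5.43 on the wild-type arrays and -4.36, -5.03, -4.63 and -4.73 on the transgenic arrays. It rose 1.96-fold (adjusted p = 0.00300), without overlap. With normexp the changes of RLP46, RLP11, RLP12 and RLP35 were 0.49, 0.45, 0.26 and 0.16.

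RLP7 (AT1G47890) had the largest called rise, 2.36-fold, with -5.40, -4.04, -3.72 and -4.13 on the wild-type arrays and -2.49, -3.20, -3.04 and -3.59 on the transgenic arrays. Wild-type replicate 1 was far below the other wild-type arrays, and the change of 1.24 ± 0.39 (SE) had a 95% interval of 0.33 to 2.15 and an adjusted p of 0.0435. RLP39 (AT3G24900) gave -6.71, -6.89, -6.33 and -6.76 on the wild-type arrays and -5.25, -5.75, -5.49 and -5.52 on the transgenic arrays. The nearest arrays of the groups were 0.58 apart and the rise was 2.25-fold (adjusted p = 0.00105), although only 3 of 4 wild-type arrays were well above background. RLP21 (AT2G25470) read -6.02, -5.41, -5.36 and -5.10 on the wild-type arrays and -4.47, -5.22, -4.17 and -4.44 on the transgenic arrays. Transgenic replicate 2 fell among the wild-type arrays, and the change was 0.90 ± 0.27 (SE, adjusted p = 0.0365). RLP34 (AT3G11010) gave 0.47, 0.67, 0.89 and 1.02 on the wild-type arrays and 1.15, 1.17, 1.39 and 1.68 on the transgenic arrays. The groups were separate, with a change of 0.58 ± 0.16 (SE, adjusted p = 0.0257). RLP37 (AT3G23110) read -2.62, -2.55, -2.54 and -2.42 on the wild-type arrays and -2.33, -2.16, -1.88 and -1.95 on the transgenic arrays. It was higher on every transgenic array, by 0.45 ± 0.10 (SE, adjusted p = 0.0139) between the means.

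The remaining called members changed by 0.33 or less. RLP50 (AT4G13920) gave -3.66, -3.88, -3.81 and -3.52 on the wild-type arrays and -3.35, -3.25, -3.48 and -3.48 on the transgenic arrays. All transgenic arrays were higher, by 0.33 ± 0.10 (SE, adjusted p = 0.0324) between the means. RLP2 (AT1G17240) read -2.78, -2.89, -2.99 and -2.89 on the wild-type arrays and -2.69, -2.55, -2.54 and -2.62 on the transgenic arrays. The transgenic arrays again lay above the wild type, by 0.28 ± 0.06 (SE, adjusted p = 0.0123). RLP14 (AT1G74180) gave -2.69, -2.77, -2.86 and -2.78 on the wild-type arrays and -2.68, -2.46, -2.46 and -2.53 on the transgenic arrays. Transgenic replicate 1 exceeded the highest wild-type array by only 0.0027, and the change was 0.24 ± 0.07 (SE, adjusted p = 0.0316). The calls of RLP7, RLP39, RLP21, RLP34, RLP37, RLP50, RLP2 and RLP14 were lost with normexp, where their changes were 0.38, 0.05, 0.08, 0.48, 0.24, 0.07, 0.04 and 0.12. Fits without 1 array ended the calls of RLP7 in 5 of 8 (adjusted p 0.0647 to 0.0922), RLP21 in 6 (0.0679 to 0.0861), RLP34 in 4 (0.0521 to 0.0622), RLP50 in 5 (0.053 to 0.0815) and RLP14 in 6 (0.067 to 0.0782). For RLP7 these were the fits without wild-type replicate 2 or 4 or transgenic replicate 1, 2 or 3. For RLP34 they were those without wild-type replicate 1 or 2 or transgenic replicate 3 or 4, and for RLP50 those without wild-type replicate 1, 2 or 3 or transgenic replicate 1 or 2. For RLP21 all fits but those without wild-type replicate 4 or transgenic replicate 2 lost the call, and for RLP14 all but those without wild-type replicate 1 or transgenic replicate 1.

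The 19 members that did not pass had changes from -0.33 (RLP6) to 1.34 (RLP25), 14 of them positive and 5 negative, with adjusted p from 0.0526 to 0.858 in limma. RLP25 (AT2G33030) gave -8.07, -8.94, -6.00 and -6.91 on the wild-type arrays and -4.75, -5.77, -7.90 and -6.13 on the transgenic arrays. Its arrays spanned several log2 units within each genotype, only 2 wild-type and 3 transgenic arrays were well above background, and the 95% interval ran from -0.57 to 3.26. RLP24 (AT2G33020) read -3.17, -2.42, -3.10 and -2.56 on the wild-type arrays and -2.40, -2.38, -2.25 and -2.39 on the transgenic arrays. Its groups did not overlap, but wild-type replicates 1 and 3, from one slide, lay far below 2 and 4, from the other, and the adjusted p was 0.0809. With slide as a block RLP24 passed as higher (adjusted p = 0.0385 in limma). RLP9 (AT1G58190) gave -4.19, -4.07, -3.72 and -4.01 on the wild-type arrays and -3.71, -3.53, -3.78 and -3.84 on the transgenic arrays for its brightest probe. This probe changed by 0.28 ± 0.11 (SE, adjusted p = 0.0951) and another probe by 0.88 (adjusted p over all probes 0.00709 in limma). Both probes of RLP9 thus rose, but by different amounts. The mean of its tested probes changed by 0.58 and passed (adjusted p = 0.0139 in limma). RLP22, RLP26, RLP36, RLP43 and RLP56 changed by 0.54, 0.39, 0.59, 0.30 and 0.39, all without passing. The mean of RLP56's probes changed by 0.68 and passed (adjusted p = 0.0374 in limma). Smaller differences were those of RLP4 (0.12), RLP13 (0.25), RLP29 (-0.17) and RLP57 (0.16). For the members nearest 0 the intervals still allow moderate changes: -0.16 to 0.25 for RLP16, -0.29 to 0.22 for RLP55 and -0.60 to 0.48 for RLP40.

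Many RLP genes lie side by side in the genome, so their positions were set beside their changes as a description. Neighbours were taken as members of one chromosome with at most 10 other protein-coding genes between them, in the gene order of the assembly TAIR10.1. By this limit, which was set after values were seen, 36 members fell into 13 groups and 20 stood alone. Of the 31 tested members in groups, 18 were higher and 3 lower, and of the 19 tested single members 7 were higher and 3 lower. Beside them stand 18.6% higher and 16.0% lower among all genes. Nothing is read from the difference between grouped and single members, since the family and the limit were chosen with values known. RLP32 and RLP33, on chromosome 3 with no gene between them, were both lower. The pair RLP30 and RLP31 lies on the same chromosome with 30 genes between RLP31 and RLP32, and there RLP30 was higher and RLP31 changed by 0.11 ± 0.14 (SE, adjusted p = 0.584). The group RLP24 to RLP28 on chromosome 2 held 1 higher gene (RLP28), 1 lower gene (RLP27) and 3 that did not pass. In the group RLP39 to RLP42 on chromosome 3, RLP39, RLP41 and RLP42 were higher, and RLP40 changed by -0.06 ± 0.23 (SE, adjusted p = 0.858). Both members of the groups RLP11 to RLP12, RLP20 to RLP21 and RLP34 to RLP35 were higher. Whether probes of similar members share signal was not tested.

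**Figure D3:**
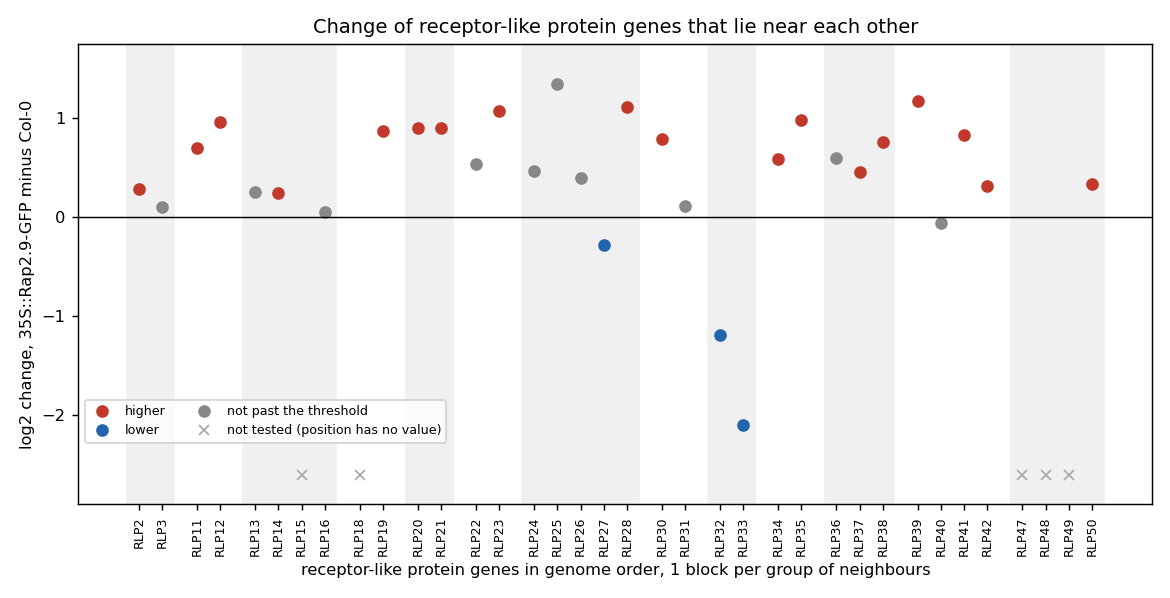
Log2 change (transgenic minus wild type, y axis) of the 36 RLP genes that lie near another member, in genome order (x axis), with the 13 groups in blocks of alternating shade. Red points were higher, blue points lower, grey points did not pass, and crosses mark members with no test; RLP32 and RLP33 form the block in which both points are blue.

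Genes whose products work with RLPs were listed to set beside the family. Of 41 listed partner and signalling genes, 38 were found by name and 34 were tested, of which 3 were higher, 6 were lower and 25 did not pass, beside 18.6% higher and 16.0% lower among all genes. Neither count is read as particular to the partner genes. SOBIR1 (AT2G31880), the adaptor kinase that RLPs of immunity bind constitutively, gave 3.21, 3.64, 3.70 and 3.64 on the wild-type arrays and 3.72, 3.65, 3.35 and 3.90 on the transgenic arrays. The groups overlapped and the change of 0.11 ± 0.15 (SE) did not pass (adjusted p = 0.611, 95% interval -0.24 to 0.46). BAK1 (AT4G33430), the co-receptor that joins on ligand binding, read 1.16, 1.20, 1.14 and 1.21 on the wild-type arrays and 1.06, 1.02, 1.00 and 0.93 on the transgenic arrays. Its transgenic arrays were all lower, but by only 0.18 (SE 0.05, adjusted p = 0.0252), and the call was lost in 4 of 8 fits without 1 array (0.0573 to 0.0722), those without wild-type replicate 2 or 4 or transgenic replicate 3 or 4. The other 6 tested co-receptors and regulators did not pass.

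Of the listed immune genes EDS1, PAD4, SAG101, ADR1, ADR1-L2 and NDR1, 1 of 6 tested was called, as lower. Among all genes 18.6% were higher and 16.0% lower, and nothing is read from this count. EDS1 (AT3G48090) gave -0.50, -0.37, -0.36 and 0.09 on the wild-type arrays and -0.13, 0.13, -0.27 and 0.17 on the transgenic arrays. Its groups overlapped, and the change of 0.26 ± 0.15 (SE) did not pass (adjusted p = 0.229). PAD4 was higher on every transgenic array, by 0.33 ± 0.11 (SE), but did not pass (adjusted p = 0.0573 in limma). It passed in 3 of 20 alternative settings. NDR1, SAG101 and ADR1 changed by 0.42, -0.14 and -0.12, with overlapping groups and without passing. ADR1-L2 (AT5G04720), a helper immune receptor, read 1.96, 2.18, 2.22 and 2.32 on the wild-type arrays and 1.84, 1.81, 1.60 and 1.90 on the transgenic arrays. Its change of -0.38 ± 0.10 (SE) passed with an adjusted p of 0.0216, but not without wild-type replicate 3 or 4 (0.0557 to 0.0578). Among cytoplasmic signalling genes 1 of 5 was called, as higher, beside 18.6% higher and 16.0% lower among all genes. This was the kinase gene MPK6, with 0.11, 0.13, 0.11 and 0.07 on the wild-type arrays and 0.24, 0.23, 0.36 and 0.25 on the transgenic arrays. Every transgenic array was higher, by 0.16 ± 0.05 (SE, adjusted p = 0.0397), and the call was lost in 7 of 8 fits without 1 array (0.0644 to 0.104), all but the fit without transgenic replicate 2. The 4 genes of the SNC2 pathway did not pass, with changes from -0.72 for CBP60G (adjusted p = 0.0569) to 0.61 for SARD1 (adjusted p = 0.0847). CBP60G passed in 5 of 20 alternative settings, SARD1 in 1, and WRKY70 and BDA1 in 0.

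The largest called changes among the partners were those of ER and BAM3, from the lists of TMM and CLV2. In the CLV2 list 3 of 5 tested genes were lower, all receptor kinases, beside 16.0% lower among all genes. Nothing is read from this count. BAM1, a further receptor kinase of the list, changed by 0.03 (adjusted p = 0.685 in limma). BAM3 (AT4G20270) gave 0.64, 0.68, 0.66 and 0.61 on the wild-type arrays and 0.03, 0.33, 0.19 and 0.09 on the transgenic arrays. It fell 1.40-fold, by 0.49 (SE 0.07, adjusted p = 0.00222), without overlap. CLV1 (AT1G75820) read 1.97, 1.78, 1.77 and 1.98 on the wild-type arrays and 1.72, 1.59, 1.60 and 1.67 on the transgenic arrays. BAM2 (AT3G49670) gave 0.94, 0.57, 0.73 and 0.74 on the wild-type arrays and 0.55, 0.47, 0.53 and 0.43 on the transgenic arrays. Both were lower on every transgenic array, by 0.23 (SE 0.07, adjusted p = 0.0358) and 0.25 (SE 0.08, adjusted p = 0.0497). The call of CLV1 was lost in 5 of 8 fits without 1 array (0.0703 to 0.0921), those without wild-type replicate 1 or 4 or transgenic replicate 2, 3 or 4, and that of BAM2 in 7 of 8 (0.0717 to 0.115), all but the fit without wild-type replicate 2. CRN, the direct partner of CLV2, changed by 0.18 ± 0.10 (SE, adjusted p = 0.198).

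In the TMM list 1 of 4 tested genes was higher and 1 was lower, beside 18.6% higher and 16.0% lower among all genes. Nothing is read from these counts. ER (AT2G26330), the receptor kinase ERECTA, gave 1.80, 1.67, 1.55 and 1.70 on the wild-type arrays and 0.92, 0.85, 0.90 and 0.96 on the transgenic arrays. It fell 1.71-fold, by 0.77 (SE 0.06, adjusted p = 1.91e-04), with the groups far apart, opposite in sign to TMM. Its relative ERL2 (AT5G07180) gave -3.74, -3.86, -3.69 and -3.56 on the wild-type arrays and -3.42, -3.45, -3.21 and -3.39 on the transgenic arrays. ERL2 was higher on every transgenic array, by 0.34 ± 0.08 (SE, adjusted p = 0.0168), a difference that was -0.02 with normexp. Of the RLP44 partners, PSKR1 (AT2G02220), a receptor for the peptide hormone phytosulfokine, read -1.98, -1.90, -1.80 and -1.90 on the wild-type arrays and -1.31, -1.67, -1.38 and -1.50 on the transgenic arrays. It rose 1.35-fold, by 0.43 ± 0.09 (SE, adjusted p = 0.00837), and BRI1, the brassinosteroid receptor, changed by -0.16 ± 0.06 (SE) without passing (adjusted p = 0.0743). This is its brightest probe, and the mean of its 3 tested probes changed by -0.68 (adjusted p = 0.0497), so the probes of BRI1 disagree. With normexp 2 of the 9 partner calls held, ER and BAM3. Among the lost calls the changes of ADR1-L2, CLV1, BAM2 and MPK6 were -0.39, -0.27, -0.27 and 0.14 with normexp, close to the values above, with adjusted p from 0.0988 to 0.344 in limma. Those of BAK1 and PSKR1 were -0.08 and 0.29.

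**Figure D4:**
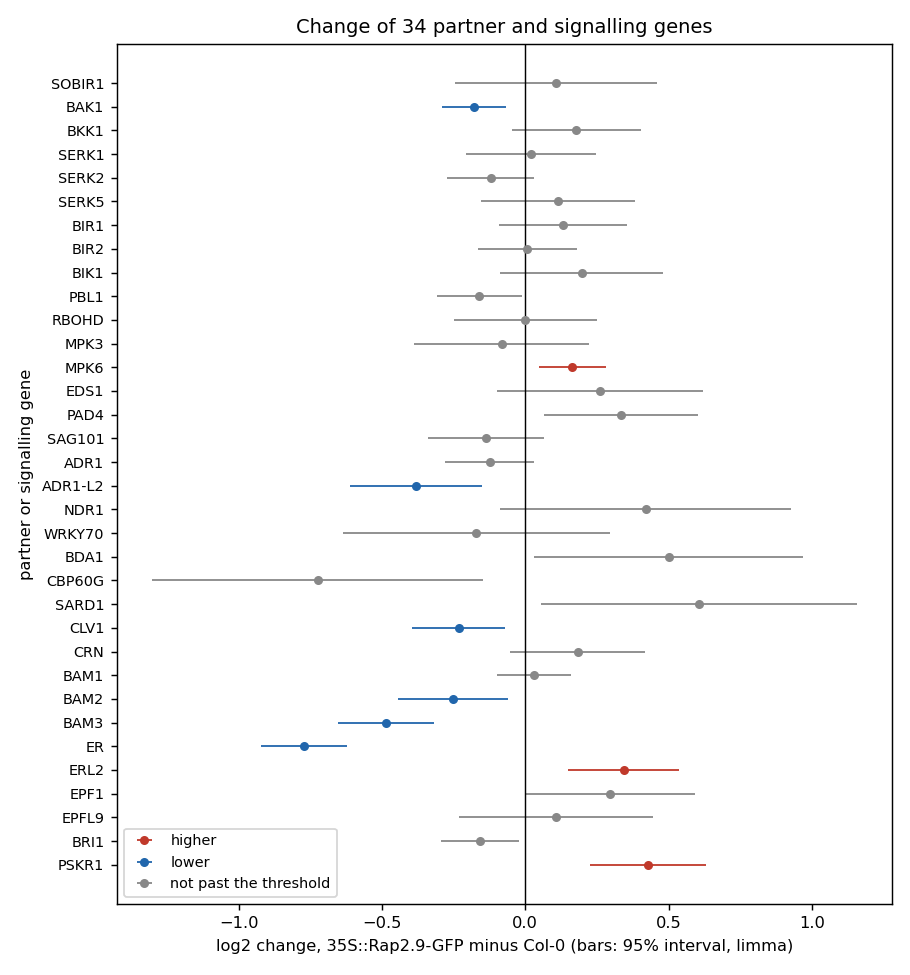
Log2 change (transgenic minus wild type, x axis) of the 34 tested partner and signalling genes (y axis), with 95% intervals from limma over 4 arrays per genotype. Red points (3) were higher, blue points (6) lower and grey points (25) did not pass, with ER the leftmost blue point at -0.77 and SOBIR1 at 0.11.

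How many RLP genes were called differed most between the processed signal and normexp. This alternative differs in more than the background correction, since it starts from the median signals of the spots and their surroundings and adds an offset of 50, and which of these steps moved the calls was not tested. With it 6 members were higher and 4 lower instead of 25 and 6, and the calls of all genes went from 4660 higher and 4025 lower to 1286 and 1496. The 10 members called with both corrections were RLP19, RLP23, RLP28, RLP38, RLP41 and RLP54 (higher) and RLP32, RLP33, RLP45 and CLV2 (lower), and these held under all 20 alternatives. Their wild-type levels ran from -2.75 to 2.59 with a median of -0.66, and those of the 21 members whose calls were lost from -6.67 to 0.77 with a median of -3.19. No called member changed sign with normexp. Quantile normalisation and the authors' deposited value table each gave 16 higher and 6 lower members. Both ended the calls of RLP1, RLP2, RLP14, RLP21, RLP37, RLP39, RLP42, RLP50, RLP52 and RLP53, and both added RLP51 as lower (adjusted p = 0.0378 and 0.0361 in limma). Scaling to the array median ended those of RLP1, RLP2, RLP14, RLP21, RLP34, RLP37, RLP42 and RLP50. Without transgenic replicate 1, the array with the most probes above background, 20 members were higher and 6 lower.

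**Figure D5:**
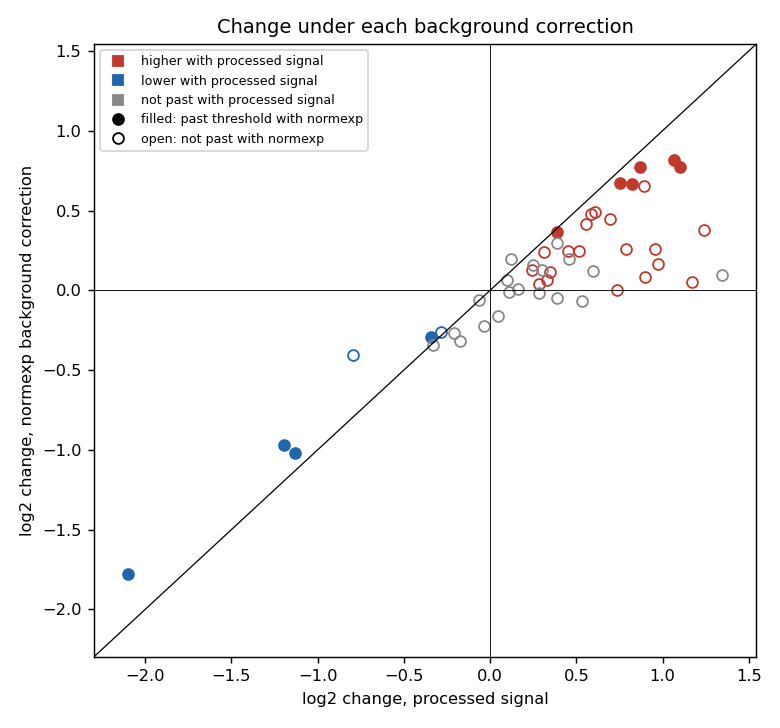
Log2 change of each of the 50 tested RLP genes with the processed signal (x axis) and with normexp background correction (y axis), coloured by the call with the processed signal and filled where the adjusted p with normexp was under 0.05. The line marks equal changes; 10 points are filled, and most red points lie below the line, nearer 0 with normexp.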

How the data were processed

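Leaf RNA of 8 plant samples was hybridised to Agilent 1-colour arrays, and the genotype of each came from the labels. Per the file headers, the deposited scanner files hold spot intensity from Agilent Feature Extraction 11.5.1.1 (array design 021169), from which the background was subtracted, with no normalisation across arrays. The authors' deposited value table holds log2 values centred on each probe's median. Its other steps are not given in the sources used here, and its deviations correlated across 43603 probes with those of the scanner values at r of 0.851 to 0.969 on 7 arrays and 0.658 on transgenic replicate 1, so what its scaling did to that array is unknown. Its column medians were 0.0015, 0.0116, -0.0036 and 0.0041 for wild-type and -0.0144, -0.0042, -0.0022 and 0.0019 for transgenic replicates 1 to 4.

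The values analysed were the log2 processed signal minus the array's 75th percentile, without 1417 control spots of 45220 and without 25 to 63 outlier spots per array. A probe was tested if well above background on at least 4 of 8 arrays (33147 of 43603), and 34348 probes were matched to a locus through their RefSeq transcripts. A gene was its brightest tested probe. Probes without a locus were grouped by their name in the scanner files, or stood alone where that was blank. Files were read in R 4.3.3 by data.table (release 1.17.8). The test of genotype was limma 3.58.1 (lmFit, eBayes, two-sided), and p-values were adjusted by Benjamini-Hochberg over 25089 genes. The fit was tested on simulated data.

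The members and all lists were chosen with earlier results of these data known. Every member could be named, those called with all array values, and partners by the 3 largest called changes of each list, with SOBIR1, BAK1 and EDS1 whatever their change. The grouping of members by role was written after values were seen. EMB1444 was left out because RLP53 holds the number of its synonym. BAM1, BAM2 and ER are names of more than 1 locus in the gene list, and the receptor kinase was taken. GC1 was left out as ambiguous, and BIR3, PBL30 and PBL31 had no match. The array header names TAIR10, while TAIR10.1 is the assembly of the genes used for names, so no positions are given. The number of arrays limits the precision. The alternatives were other background correction (normexp, offset 50, on median signals because mean signals are not in the files, chosen after seeing the data), scalings, filters, probe choices, blocks and fits without 1 array.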

Additional observations from a re-analysis of the deposited data

Results flagged for a closer look

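In 3 of 100 groups of 4 arrays (50 members, both genotypes), 1 array stood apart from the other 3 by more than Dixon's 95% critical value. The measure is the gap to the nearest array divided by the range of the group. Chance flags about 1 in 20 groups. For CLV2 (RLP10) wild-type replicate 2 was lowest, at 0.00 against 0.09 for the next array, a ratio of 0.857. For RLP13 transgenic replicate 1 was lowest, at -1.13 against -0.84, a ratio of 0.845. For RLP24 transgenic replicate 3 was highest, at -2.25 against -2.38, a ratio of 0.856.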

How the results depend on the processing

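Of the 31 calls among the members, 10 held under all 20 alternatives and 7 were lost with normexp only. Counts of higher members were 6 with normexp, 16 with quantile normalisation and 16 with the deposited table, against 25. The members' median change was 0.12 with normexp, 0.26 with quantile normalisation, 0.30 with median scaling and 0.26 with the deposited table, against 0.39. Over all genes normexp called 1286 higher and 1496 lower, and median scaling 3205 and 5021, against 4660 and 4025. The median change of all genes was 0.03, and 0.13 without the filter on dim probes. Partner genes numbered 0 higher and 2 lower with normexp, and 1 higher and 9 lower with median scaling, against 3 and 6. There were 3 lower both without the filter and with the replicate block. Where probes had to be well above background on all 8 arrays, 4 partners were higher and 7 lower. The change of ERL2 took a negative sign with normexp but did not pass (-0.0167, adjusted p = 0.997 in limma). Fits without 1 array gave 19 to 23 higher and 5 to 6 lower members, median changes of 0.37 to 0.39, 3525 to 4342 genes higher and 3022 to 4013 lower, and 2 to 3 partners higher and 2 to 6 lower. The cause of these differences was not tested. Slide as a block gave 22 higher and 6 lower members. The deviations of same-numbered arrays correlated at 0.16, -0.09, -0.32 and 0.27, and those of other pairs at -0.32 to 0.36. So few values cannot show whether same-numbered samples were grown or handled together. With the replicate block 19 members were higher and 4 lower, and 4021 genes were higher and 2971 lower. Of the 19 members not called, 7 passed in at least 1 alternative. Signal over background limits RLP22, RLP25, RLP39 and RLP53, which were not well above background on every array.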
